A study of Mus musculus with 7 samples.

Results

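The miR-21 seed probes are 3 of the 1874 probes of a custom Agilent miRNA array, UC1004818, UC1004819 and UC1005934, and were chosen by sequence alone. A probe belongs to the set when bases 2 to 8 of its target RNA, the seed, equal those of the target of UC1004818, and the target was taken by reading the probe backwards in complement after dropping its last 10 T and its leading G. UC1004818 and UC1004819 are the 2 members listed with the series, and UC1005934 is a further member by the same rule. Small RNA was measured on 7 arrays, in 3 groups of mouse CD4 T cells whose transgenic receptor, DO11.10, binds a peptide of ovalbumin. The sOVA host group (3 arrays) held DO11.10+ CD44 high cells sorted 5 days after transfer of CD4 cells of DO11 Rag2-/- mice into sOVA mice, which carry a transgene for soluble ovalbumin. The WT host group (2 arrays) held cells sorted in the same way after the same transfer into Balb/c mice. Per the labels' protocols, the hosts of both groups received dendritic cells grown from bone marrow, treated with LPS and carrying Ova peptide, given into a vein 24 h after the transfer. The naive group (2 arrays) held DO11.10+ CD25- CD44 low cells of DO11.10 Rag2+/+ mice that received no transfer. All cells carried the same transgenic receptor and came from spleen and lymph nodes of pooled Balb/c mice aged 6 to 8 weeks. Activated and naive cells therefore differed in the Rag2 genotype of the donors and in the sort as well as in activation, and these cannot be told apart. The promoter of the sOVA transgene is not given in the sources used here, the sample titles word the immunization of the 2 kinds of host differently from the protocol, and activation is called in vitro in the title of the series but in vivo in its design text and protocol. Nothing says that replicate arrays came from separate pools of mice, so p-values reflect only how these samples varied, and that variation may be technical.

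MicroRNAs are short RNAs that guide Argonaute proteins to messenger RNAs, mainly by base pairing of the seed with sites in the target transcript, and this lowers translation and stability of that transcript. miRNAs with the same seed are therefore expected to share many targets. miR-21 is among the best studied of them: it is raised in many tumours and in activated T cells, and its known targets include Pdcd4, an inhibitor of translation, and Spry1, a brake on ERK signalling.

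The targets of the 3 members are shown as DNA, 5′ to 3′, with the seed in capitals, because the shared seed defines the set and the bases after it tell the members apart.
UC1004818: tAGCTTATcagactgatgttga
UC1004819: tAGCTTATcagactggtgttggc
UC1005934: gAGCTTATtcataaaagtgcag
The target of UC1004818 equals mouse miR-21a-5p of RefSeq, the arm of the precursor that is usually loaded into Argonaute. The other 2 targets matched no mouse miRNA of the RefSeq table and are called by their probe numbers. Counted from 1 at the 5′ end, the target of UC1004819 is identical to that of UC1004818 over its first 15 bases, differs from it by A16G and A22G, and has 1 further base at its 3′ end, and its GC content is 47.8% against 36.4%. UC1005934 shares the seed but differs from UC1004818 at 14 of 22 positions, the first base included.

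RefSeq (GRCm38.p6) holds 2 mature mouse miRNAs with this seed, shown here with the seed in capitals.
mmu-miR-21a-5p: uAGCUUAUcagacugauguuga
mmu-miR-21c: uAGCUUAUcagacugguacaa
miR-21a-5p lies at chr11:86584120-86584141 on the minus strand and miR-21c at chr8:128278188-128278208 on the minus strand. No member's target equals miR-21c. The target of UC1004819 is identical to miR-21c over its first 17 bases and that of UC1004818 over its first 15, so a signal at either probe does not show which of such related RNAs was bound. The hairpin of the miR-21a gene (Mir21a, chr11:86584067-86584158, minus strand) is shown to place the arms described here, which are in capitals, the 5p arm first.
Mir21a hairpin: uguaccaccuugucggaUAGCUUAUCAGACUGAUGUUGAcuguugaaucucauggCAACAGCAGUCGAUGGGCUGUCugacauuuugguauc
The hairpin lies inside the span of the protein-coding gene Vmp1 (chr11:86583858-86683836), whose product acts in autophagy. Whether the hairpin falls in an exon or an intron of Vmp1 was not analysed here. The next RefSeq genes lie 6414 bases (Gm46289, a long noncoding RNA) and 12459 bases (Tubd1, protein-coding) away.

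A level below is the log2 of the background-subtracted spot signal, averaged over the 7 spots of a probe, minus the 75th percentile of the 253 probes detected on all 7 arrays. A probe counts as detected when at least 50% of its spots are well above background, and 401 probes met this on all arrays of 1 group or more and were tested. Between 309 and 467 probes were detected per array, saturation affected 0 spots, and precision is limited by how few arrays there are. sOVA host replicate 3 and WT host replicate 2 were dim, with scaling signals of 2729 and 3591, against 9281 to 11114 on the other activated arrays and 11868 and 15743 on the naive arrays. sOVA host replicate 3 also stood apart across the 253 probes detected on all arrays. Over these, its differences from the other 2 sOVA host arrays had an SD of 1.20 and 1.37 log2 units, against 0.532 between those 2. All arrays lay on 1 slide and were scanned together, in 2 rows that each held arrays of all 3 groups.

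miR-21a-5p was higher in activated than in naive cells in both kinds of host. The processed signal of UC1004818 was 143505, 162687 and 28072 on the sOVA host arrays, 188019 and 62294 in WT hosts, and 23895 and 25870 on the naive arrays. Before scaling, the dim sOVA host replicate 3 was thus 1.17 and 1.09 times as bright as the naive arrays, whereas the other 4 activated arrays were 2.41 to 7.87 times as bright. All 7 spots were well above background on every array, with a coefficient of variation between spots of 5.9% to 12.97%. After scaling, the level was 3.86, 3.87 and 3.36 on the sOVA host arrays, 4.34 and 4.12 in WT hosts, and 1.01 and 0.72 on the naive arrays. Every activated array lay above both naive arrays, by at least 5.11-fold, and the replicates of each group lay within 0.51 log2 units of each other. In bulk RNA of this kind, a larger share of cells that hold a miRNA and more of it per cell cannot be told apart.

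The mean level of UC1004818 was 4.23 ± 0.16 in WT hosts (SD, n = 2) and 0.86 ± 0.21 in naive cells (SD, n = 2). This is a log2 difference of 3.37 with a standard error of 0.31, or 10.3-fold (95% interval 6.11 to 17.4), with an adjusted p of 0.00138 in limma. In sOVA hosts the mean level was 3.70 ± 0.29 (SD, n = 3), against the same naive mean. The log2 difference was 2.84 with a standard error of 0.28, or 7.14-fold (95% interval 4.43 to 11.5), with an adjusted p of 0.00187 in limma. Both comparisons share the naive arrays. Within the slide rows, UC1004818 was 3.33 and 3.40 log2 units higher in WT hosts than in naive cells, and 2.86 and 2.65 log2 units higher in sOVA hosts than in naive cells (rows 1 and 2). Without any scaling between arrays, a setting chosen after seeing the data, the log2 differences were 2.12 in WT hosts (adjusted p = 0.299) and 1.80 in sOVA hosts (adjusted p = 0.272) by limma, so the calls rest on scaling. With the 75th percentile taken over all probes, the sOVA host difference was 2.02 (adjusted p = 0.0566 by limma).

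UC1004819, the probe with the altered 3′ part, showed the same order of groups. Its processed signal was 2570, 2458 and 420 on the sOVA host arrays, 2962 and 968 in WT hosts, and 260.1 and 239 on the naive arrays, and all 7 spots were well above background on every array. One spot on sOVA host replicate 1 was flagged as an outlier by the scanner software and left out. The scaled level was -1.94, -2.18 and -2.70 on the sOVA host arrays, -1.65 and -1.89 in WT hosts, and -5.51 and -6.04 on the naive arrays. No activated array overlapped the naive arrays, and the dim sOVA host replicate 3 was the lowest of the 5 activated arrays, as it was for UC1004818. The log2 difference between WT hosts and naive cells was 4.01 (standard error 0.37), or 16.1-fold (95% interval 8.68 to 29.8), with an adjusted p of 0.00138 in limma. Between sOVA hosts and naive cells it was 3.50 (standard error 0.33), or 11.3-fold (95% interval 6.46 to 19.9), with an adjusted p of 0.00187 in limma. Without scaling between arrays these differences were 2.76 and 2.47 (adjusted p = 0.191 and 0.186 by limma).

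UC1005934 was not well above background in any group. None of its 7 spots was well above background on any of the 7 arrays, and all its processed signals, from 10.0 to 35.4, were stand-in values that the scanner software writes for spots that are not above background. It was therefore not tested, and no fold change is given.

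Of the 3 members, 2 passed the detection filter, and both were called higher in each kind of host. Over all tested probes, 13.7% (55 of 401) were called higher in WT hosts than in naive cells and 17% (68 of 401) in sOVA hosts than in naive cells. Groups that did not overlap, with the activated arrays above, were found for 43.6% of tested probes in WT hosts and 31.9% in sOVA hosts, so a lack of overlap alone was common. Among the 253 probes detected on all arrays, UC1004818 had the 4th largest log2 difference in WT hosts and the 11th in sOVA hosts, and UC1004819 the 1st and the 6th. Probes not well above background on naive arrays have only a bound and are left out of these ranks. The median log2 difference over all tested probes was 0.24 in WT hosts and 0.11 in sOVA hosts. The 2 detected members share their first 15 target bases and are not independent measurements of activation.

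The design also asks whether cells activated in a host that makes the antigen itself differed from cells activated in a WT host. All 3 sOVA host arrays lay below both WT host arrays for UC1004818 and for UC1004819, but neither difference passed the test. For UC1004818 the sOVA host level was 0.53 log2 units below the WT host level (log2 difference -0.53, standard error 0.28, 95% interval -1.22 to 0.16, adjusted p = 0.554 in limma). The interval runs from 0.43 to 1.12 times the WT host level, so it holds both a fall by more than 50% and a small rise. For UC1004819 the log2 difference was -0.50 (standard error 0.33, 95% interval -1.31 to 0.31, adjusted p = 0.661 in limma). Of all tested probes, 18% had every sOVA host array below both WT host arrays, and 0% (0 of 401) were called different in limma, while 47 had an unadjusted p under 0.05. Without sOVA host replicate 3 the number called was 77 and without both dim arrays 58, and neither member was called in either setting. Within the slide rows the difference for UC1004818 was -0.47 and -0.75 and that for UC1004819 was -0.41 and -0.81. The order of levels was thus WT host, sOVA host, naive for both probes. The first 2 did not overlap but were not called different in limma, and each was called higher than naive.

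Probes differ in how strongly they bind, so the ratio of their signals on 1 array is not a ratio of RNA amounts, and only its change between arrays is given here. The signal of UC1004819 was 1.79%, 1.51% and 1.49% of that of UC1004818 on the sOVA host arrays, 1.58% and 1.55% in WT hosts, and 1.09% and 0.925% on the naive arrays. The ratio was higher on every activated array than on either naive array. On the log2 scale this ratio was 0.66 higher on activated than on naive arrays (5 against 2 arrays). The exact two-sided permutation test gave p = 0.0952, the smallest p that this design allows. When the background was corrected with normexp instead, the difference was 0.39. The naive signals of UC1004819, 260.1 and 239, were also the lowest of its signals, and the part of the background in the ratio was not tested. The control probes made from UC1004818 itself, described next, also changed their ratio to it between groups, so the change does not show that 2 different RNAs changed unequally.

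The array also carries 22 control probes made from UC1004818, 1 spot each, in which 1 base is changed at each target position in turn. They are shown by their tokens, which give the base of miR-21a-5p, the position from the 5′ end and the base that the altered probe matches. They bear on how far a probe separates RNAs that differ by 1 base. On all 7 arrays 14 of the 22 were well above background. C9G, A10T, A12T and C13G, in the middle of the target, were not well above background on any array, and C4G, A7T, T8A and A16T were so on some of the arrays. G11C, which lies among the first of these, was well above background on all 7 arrays. It gave 0.713% to 0.994% of the signal of UC1004818 on activated arrays and 0.655% and 0.764% on naive arrays. A change at the 5′ end hardly dimmed the spot: T1A gave 90.4% to 99.4% of the signal of UC1004818 on activated arrays and 89.2% to 94.1% on naive arrays. For A2T, the first base of the seed, it was 69.0% to 83.8% on activated arrays and 62.9% and 63.0% on naive arrays. Further inside the seed the loss was larger, though losses as large were also seen outside it, as for G11C. Of the seed positions after A2T, T5A lost the least. T5A gave 6.6% to 9.44% on activated arrays and 4.07% and 5.95% on naive arrays. T6A gave 0.788% to 1.18% on activated arrays and 0.359% and 0.673% on naive arrays. A single change thus left anything from no detected signal to almost the whole signal. Each position has 1 control probe with 1 base change, so the parts of the position and of the bases changed cannot be told apart.

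At position 16, where UC1004819 also departs from UC1004818 but by another base, A16T gave 0.344% to 0.511% on activated arrays and 0.214% and 0.29% on naive arrays. At position 22, the other such position, A22T gave 11.4% to 21.3% on activated arrays and 21% and 25.8% on naive arrays. What share of the signal of UC1004819 came from miR-21a-5p was not tested. All 14 control probes detected on every array were brighter on each activated array than on either naive array after scaling. Their log2 differences from naive cells ran from 2.55 to 4.38 in WT hosts (median 3.82) and from 2.27 to 3.89 in sOVA hosts (median 3.30). They were above the difference of UC1004818 itself, 3.37 and 2.84, for 11 of the 14 in WT hosts and 12 of the 14 in sOVA hosts. Relative to UC1004818, the signal of 9 of the 14 was higher on every activated array than on either naive array, and that of 0 was lower on every one. The smallest belonged to the probes changed at the 3′ end of the target, A22T (2.55 in WT hosts and 2.27 in sOVA hosts) and G21C (2.77 in WT hosts and 2.45 in sOVA hosts). T14A had the largest, 4.38 in WT hosts and 3.89 in sOVA hosts. These spots have no replicate on an array, and no test was made on them.

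The 3p arm of the same hairpin was also higher in activated cells. Its targets are shown because they come from the other side of the precursor and share no seed with the members, with the base that departs from miR-21a-3p in capitals.
UC1004821: caacagcagtcgatgggctgtc
UC1004820: caacaCcagtcgatgggctgt
UC1004821 equals mmu-miR-21a-3p (chr11:86584082-86584103, minus strand), while UC1004820 differs from it by G6C, is 1 base shorter and has no RefSeq name. The level of UC1004821 was -4.64, -5.31 and -5.30 on the sOVA host arrays, -5.10 and -4.73 in WT hosts, and -8.42 and -8.16 on the naive arrays. It was detected on 2 of 3 sOVA host arrays, not on the dim replicate 3, on both WT host arrays and on 1 of 2 naive arrays, so its value on naive replicate 1 was not well above background and the folds below are approximate. The activated arrays lay well above the naive arrays with no overlap, and no order between the 2 kinds of host was seen. Its log2 difference from naive cells was 3.37 in WT hosts (standard error 0.35, 10.4-fold, adjusted p = 0.0018 in limma). In sOVA hosts it was 3.21 (standard error 0.32, 9.24-fold, adjusted p = 0.00187 in limma). Between sOVA and WT hosts the difference was -0.17 (95% interval -0.94 to 0.61, adjusted p = 0.861 in limma). UC1004820 was not well above background in naive cells and had a level at least 3.0-fold higher in WT hosts (adjusted p = 0.00286 in limma) and at least 2.62-fold higher in sOVA hosts (adjusted p = 0.00391 in limma). Such a bound sets the bright group's mean level against the lowest level among detected probes on each array of the dim group, or the probe's own level where that is higher. The bright group's mean takes in all its arrays. Where the probe was not detected on some of them, as UC1004820 on sOVA host replicate 3, the bound is only approximate. Here and below, a probe with a bound passed the detection filter only through groups where it is bright. Adjusted p values beside a bound come from limma on the measured levels, those not well above background included, and do not test the bound.

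The probes whose levels ran most like those of UC1004818 over the 7 arrays were found by the root mean square difference of log2 levels after centring each probe on its own mean. UC1004819 differed by 0.313 log2 units, against a median of 1.46 over the 399 other tested probes. Of those 399, the nearest were UC1004821 (0.342) and UC1004820 (0.345), the 2 probes of the 3p arm, whose distances rest in part on values that were not well above background (naive replicate 1 and sOVA host replicate 3 for both probes, and naive replicate 2 for UC1004820). Next came miR-301a-3p at 0.374, a miRNA that shares its seed with miR-130, measured by UC1005419. Its level was -2.19, -2.97 and -2.25 on the sOVA host arrays, -1.72 and -1.61 in WT hosts, and -5.31 and -5.31 on the naive arrays. It thus also lay far above naive cells on every activated array, with log2 differences of 3.64 in WT hosts (adjusted p = 0.00138 in limma) and 2.84 in sOVA hosts (adjusted p = 0.00318 in limma). The other 2 are UC1005305 (0.477) and UC1005264 (0.501), whose targets are shown with the seed in capitals, since neither equals a RefSeq miRNA.
UC1005305: aGCTACATctggctactgggtctc
UC1005264: tTGTGCGTgtgacagcggcta
The target of UC1005305 begins with the whole of mmu-miR-222-3p and runs past it. Its log2 difference from naive cells was 2.23 in WT hosts and 2.08 in sOVA hosts (adjusted p = 0.00316 and 0.00401 in limma). UC1005264 was not well above background in naive cells, so its distance too rests on such values. It was at least 3.05-fold higher in WT hosts (adjusted p = 0.00194 in limma). On sOVA host replicates 1 and 3 its levels, -6.57 and -6.7, were not well above background either. The 1.88-fold bound in sOVA hosts is thus only approximate (adjusted p = 0.00568 in limma). These likenesses over 7 arrays describe 1 contrast for the most part, activated against naive.

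miR-21 is one of several miRNAs known to be raised when T cells are activated. Of 18 others on a list of such miRNAs, all matched probes, and 26 of their 35 probes were tested. In WT hosts 12 of the 26 (46.2%) were called higher than in naive cells, against 13.7% of all tested probes, and 0 were called lower, against 6.48%. In sOVA hosts 14 (53.8%) were called higher, against 17% of all tested probes, and 1 (3.85%) lower, against 6.23%. One of these 14, for miR-212-3p, was detected in neither sOVA hosts nor naive cells. The 1 called lower, for miR-19b-1-5p, was not detected in sOVA hosts and has no bound. Thus 13 higher and 0 lower rest on signal detected in at least 1 of the groups compared. These 2 probes were named after their values were seen. The median log2 difference of the 26 was 1.73 in WT hosts and 1.45 in sOVA hosts, against 0.24 and 0.11 over all tested probes. In each comparison 5 of the 26 had only a bound, and with these at their bound the medians were 1.57 and 1.34. In WT hosts these 5 are all among the 12 called higher. They were not well above background on naive arrays and passed the filter only through activated groups, so their calls rest on such naive values. The same holds in sOVA hosts for the probes of miR-96-5p, miR-182-5p and miR-183-5p, which are among the 13 called higher there. The 4 probes with the smallest adjusted p belong to miR-96-5p, miR-182-5p (2 probes) and miR-183-5p, which are made from 1 cluster, and none was well above background on a naive array. Those for miR-182-5p, known from activated helper T cells, were at least 8.72-fold and 10.0-fold higher in WT hosts (adjusted p = 0.00138 for both in limma) and at least 5.24-fold and 6.15-fold higher in sOVA hosts (adjusted p = 0.00187 for both). miR-96-5p was at least 15.2-fold higher in WT hosts (adjusted p = 0.000806 in limma) and at least 7.29-fold higher in sOVA hosts (adjusted p = 0.00114). miR-183-5p was at least 4.13-fold higher in WT hosts (adjusted p = 0.00253 in limma). In sOVA hosts it was detected on 1 of 3 arrays, so its 2.5-fold bound there is only approximate (adjusted p = 0.00437 in limma). Between sOVA and WT hosts 0 of the 26 were called in limma.

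A list of 12 miRNAs known for high levels in naive lymphocytes was read in the same way. Of these, 11 matched probes, and 19 of their 28 probes were tested. In WT hosts 3 of the 19 (15.8%) were called lower than in naive cells, against 6.48% of all tested probes, and 0 higher, with a median log2 difference of -0.74. In sOVA hosts 1 of the 19 (5.26%) was called lower, which is no more than the 6.23% of all tested probes, and 0 higher, with a median of -1.18. miR-181a-5p, which tunes T cell receptor signalling, fell by 3.34 log2 units in WT hosts (standard error 0.61, adjusted p = 0.0118 in limma), while its difference in sOVA hosts was -1.64 (adjusted p = 0.0708). miR-26b-5p fell by 1.5 log2 units in WT hosts (adjusted p = 0.015 in limma) and by 2.15 in sOVA hosts (adjusted p = 0.00423). The 3p arm miR-181a-1-3p, not well above background in WT hosts, was at least 2.92-fold lower there (adjusted p = 0.0235 in limma). The difference of miR-29b-3p by UC1004864 was -3.20 in WT hosts (adjusted p = 0.0621 in limma) and -3.06 in sOVA hosts (adjusted p = 0.0503).

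Markers of T cells and of other cells that the sorted samples could hold were read on the same arrays. All 9 probes of the lymphocyte list (miR-142, miR-150, miR-181a and miR-342) were detected on at least 1 array, and 7 to 9 of them on each array. The log2 of their summed level was 3.07, 2.38 and 1.73 on the sOVA host arrays, 2.81 and 2.20 in WT hosts, and 3.74 and 3.51 on the naive arrays. It was lower on every activated array than on the naive arrays. Of the 9 probes, 2 were called lower in WT hosts and 0 in sOVA hosts, with median log2 differences of -1.26 and -1.53. For myeloid and dendritic cells, 2 of 3 matched probes were detected on any array, both for miR-223-3p. miR-511 matched no probe, so it was not read. The log2 of the summed level of these 3 probes was -5.79 to -4.20 on sOVA host arrays, -5.13 and -5.49 on WT host arrays, and -2.57 and -2.37 on naive arrays. None of the 3 probes was detected on sOVA host replicate 1 or WT host replicate 2, so the sums there are those of signals not well above background, and the part of myeloid cells in the values of miR-21a-5p was not tested. Both detected probes were called lower in each kind of host, with log2 differences of -2.68 and -2.47 in sOVA hosts (adjusted p = 0.0212 and 0.0262 in limma) and -3.04 and -2.83 in WT hosts (adjusted p = 0.015 and 0.0242). Of the erythroid list, 1 of 3 probes was detected, for miR-451a, and its level was 0.34 on sOVA host replicate 3, against -4.75 to -1.69 on the other sOVA host arrays, -4.00 and -2.40 in WT hosts, and -1.53 and -2.49 on the naive arrays. The other probes of that list were for miR-144. miR-486 of that list and miR-122, the liver marker, matched no probe, so they were not read. Of the epithelial list, 7 of 13 probes were detected on at least 1 array, with a summed level of -3.46 to -2.80 on sOVA host arrays, -3.75 and -3.83 on WT host arrays, and -3.15 and -3.24 on naive arrays. On sOVA host replicate 3 and WT host replicate 2 none of the 13 was detected. The members went different ways: miR-205-5p, named after its values were seen, was detected on sOVA host replicates 1 and 2 alone (levels -4.87 and -4.08), while miR-200a-3p was called lower in both kinds of host and miR-200b-3p in WT hosts. These last 2 were detected on the naive arrays alone and passed the filter only through them. Their calls thus rest on activated values that were not well above background. Of the endothelial and stromal list, 2 of 7 probes were detected, both on naive replicate 2 alone. miR-199a and miR-10b had no detected probe, and miR-143 and miR-145 matched no probe, so they were not read. The part of erythroid RNA in the values of sOVA host replicate 3 was not tested. Without that array the log2 difference of UC1004818 between sOVA hosts and naive cells was 2.99.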

How the data were processed

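Total RNA (250 ng per the series' design text) was extracted with Trizol and labelled with Cy3 using an Exiqon kit, per the labels' protocols. Per the file headers, the deposited scanner files give linear intensity per spot after background subtraction and detrending, with no normalization across arrays. The headers name Feature Extraction 9.5.1.1, whereas the submitters' processing notes name 10.6. The submitters' own value table was not used here, because none of its identifiers matched a miR-21 seed probe. Spots flagged as outliers were left out, the log2 signals of a probe's 7 spots were averaged, and the 75th percentile of 253 probes was subtracted on each array. Group means over all 7 arrays were fitted with limma 3.58.1 (lmFit, eBayes) in R 4.3.3 to 401 probes, with Benjamini-Hochberg adjustment over all of them and a threshold of 0.05. The script was tested on simulated data. Probes were named where the target equals, or is the start of, a RefSeq mature mouse miRNA (564 of 1874 probes). The probes described in full are the members, the nearest profiles and up to 4 per list by adjusted p. The members and lists were chosen with earlier results of these data known. Alternatives changed the background correction, scaling, spot summary, detection rule, filter, merging of probes, variance model, blocks and arrays used.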

Additional observations from a re-analysis of the deposited data

Results flagged for a closer look

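The control probes with 1 changed base are not among the probes of the comparisons, yet they carried signal that followed the groups. Of the 22 made from UC1004818, 14 were well above background on all 7 arrays, and for all 14 every activated array was above both naive arrays. The smallest of their log2 differences was that of A22T, 2.55 in WT hosts and 2.27 in sOVA hosts, and its signal was 11.4% to 21.3% of that of UC1004818 on activated arrays, against 21% and 25.8% on naive arrays. For 9 of the 14 the share of the signal of UC1004818 was instead higher on every activated array than on either naive array, as for T14A, with 0.579% to 0.868% on activated arrays and 0.225% and 0.458% on naive arrays.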

How the results depend on the processing

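Of 138 recomputed differences of the 2 detected members, 133 kept their direction and side of the threshold, 5 lost the call and 0 changed sign. Those 5 are the 4 without scaling between arrays, chosen after seeing the data (UC1004818 2.122 in WT hosts and 1.805 in sOVA hosts; UC1004819 2.763 and 2.472), and UC1004818 in sOVA hosts with the percentile over all probes, 2.019. The cause was not tested. That scaling moved the median of all probes to -0.276 in WT hosts and -0.71 in sOVA hosts; relative to it, UC1004818 differed by 3.127 and 2.729.

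Leaving out 1 array gave UC1004818 3.219 to 3.49 in WT hosts and 2.69 to 2.99 in sOVA hosts against naive cells, UC1004819 3.743 to 4.248 and 3.24 to 3.722. For sOVA against WT hosts, UC1004818 ran from -0.641 to -0.363 and UC1004819 from -0.69 to -0.291, and no setting called either.

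The number of probes called moved far more. For WT hosts against naive cells it was 81 (55 higher, 26 lower). It became 49 (25 higher, 24 lower) with the percentile over all probes, 51 with normexp, 22 without a filter, 29 for probes detected on all arrays, 194 with array weights, 130 with slide row as a block, 149 without both dim arrays, 169 with only the groups compared and 11 without scaling. For sOVA hosts against naive cells it was 93 (68 higher, 25 lower). It became 34 without a filter, 41 for probes detected on all arrays, 214 with array weights, 157 with slide row as a block, 188 without both dim arrays, 22 with only the groups compared and 6 without scaling, and its split was 29 higher and 49 lower with the percentile over all probes and 44 and 35 with quantile normalization. For sOVA against WT hosts it was 0, and became 55 with array weights and 58 without both dim arrays. Leaving out 1 array gave 17 to 184, 15 to 159 and 0 to 77 in the 3 comparisons, the lowest without naive replicate 1 in the first 2 and the highest without sOVA host replicate 3 in all 3.

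Whether arrays of the same replicate number form pairs cannot be settled here, because replicates 1 and 2 give only 1 deviation a group. Deviations from the mean of these 2 arrays of each group correlated at 0.177 (naive and WT host), 0.097 (naive and sOVA host) and -0.349 (WT and sOVA host). With the replicate block, UC1004818 differed by 3.365, 3.004 and -0.361 and UC1004819 by 4.006, 3.717 and -0.289 in the 3 comparisons. sOVA host replicate 3 is alone in its block and adds nothing to this fit, which gave 165 calls for WT hosts against naive cells and 36 for sOVA against WT hosts, while leaving that array out with no block gave 184 and 77. UC1005934 was not well above background, and UC1004821 was near background on naive arrays.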
